A study of Mus musculus with 14 samples.

Results

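The genes described here are 10 ion channel genes of the potassium, chloride and TRP (transient receptor potential) families, *Kcnk13*, *Kcnk6*, *Kcnj2*, *Kcnj10*, *Kcnn4*, *Kcna3*, *Clic1*, *Clic4*, *Trpv2* and *Trpm2*. They were given as a list of names, with no threshold on a value. All 10 were matched to a row among the 33939 genes of the table, and all 10 passed the filter on low values in every comparison. RNA-seq was done on CD11b+ microglia/macrophages isolated with magnetic beads from mouse brain at 3 days after traumatic brain injury (TBI) by controlled cortical impact. All mice were C57BL/6 males of 8 to 12 weeks, all had received tamoxifen and all had been injured. The control (Ctrl) mice were *Cx3cr1-CreER*+/-, and the conditional knockout (cKO) mice were *Cx3cr1-CreER*+/- and homozygous for a floxed target gene. Both genotypes thus carry the CreER knock-in at *Cx3cr1*, a gene of microglia and of some other macrophages and monocytes. Per the study's methods, injury followed a waiting period after tamoxifen that lets circulating *Cx3cr1*+ monocytes be replaced. The injured hemisphere is called ipsilateral (IL) and the opposite, non-lesion hemisphere contralateral (CL). The CL hemisphere belongs to an injured brain and is not a naive control. There were 4 libraries per hemisphere for Ctrl and 3 per hemisphere for cKO, 14 in all, under 8 mouse numbers. Of these, 6 stand on both hemispheres, while 784 stands on a cKO IL library only and 788 on a cKO CL library only. Whether 784 and 788 are separate animals could not be checked, and they were treated as such. The study gives fewer cKO mice than the labels have cKO numbers.

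Potassium channels set the resting membrane potential of microglia and macrophages and, through it, the driving force for calcium entry. Potassium efflux is also a trigger of the NLRP3 inflammasome. The CLIC proteins exist in a soluble form and in a membrane-inserted form with chloride conductance, and TRPV2 and TRPM2 are calcium-permeable cation channels.

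The values are reads of a gene among 1000000 reads assigned to genes (CPM). Reads per library, derived from the smallest step of the values, ranged from 12.2 to 41.6 M with a median of 34.2 M. The shallowest was the IL library of Ctrl mouse 3546, in which 1 read is worth 0.0818 CPM. Of the defining microglial genes, all 15 on a homeostatic list were above 0 in every library, and their sum was 65530 to 80229 CPM in CL and 34316 to 40272 CPM in IL libraries. Neuronal markers summed to 3.39 to 22.2 CPM. Throughout, log2 fold changes with their standard error (SE) and Benjamini-Hochberg adjusted p come from limma on log2(CPM + 1), adjusted over all genes tested, and a gene is called at an adjusted p of at most 0.05 with a fold change of at least 1.2.

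To compare levels between genes, CPM was divided by the length of the merged exons in kb. *Clic1* was the highest of the 10 in all 4 groups, with 168 ± 35.7 CPM per kb (SD, n = 4) in Ctrl CL, and it lay above 99.2% of all genes there. *Kcnk13* followed with 50.4 ± 5.56 CPM per kb, and *Trpv2* with 31.2 ± 3.61. *Kcnj10* was the lowest in all 4 groups, with 0.219 ± 0.133 CPM per kb in Ctrl CL. In Ctrl CL libraries, *Clic1*, *Kcnk13* and *Trpv2* were separated from each other without overlap, whereas *Trpv2*, *Kcnk6* and *Kcna3* overlapped with the next gene in the order. In cKO IL libraries the span from *Kcnk13* (37.9 ± 3.67 CPM per kb, n = 3) over *Trpv2*, *Kcna3* and *Clic4* to *Kcnk6* (28.1 ± 3.59) was a run of neighbours with overlapping libraries. Between Ctrl CL and Ctrl IL, *Clic4* moved from the sixth to the fifth place and *Kcnn4* from the ninth to the seventh.

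**Figure D1:**
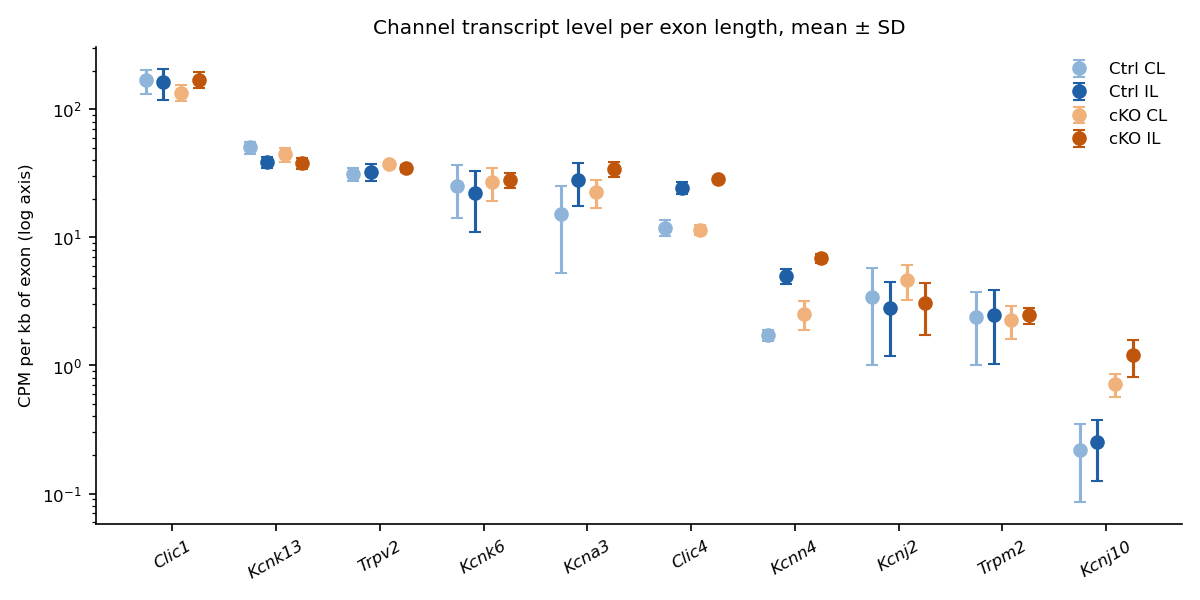
Level of the 10 channel genes per exon length. The y axis is CPM per kb of exon on a log scale, and points and bars are means ± SD over the 4 Ctrl or 3 cKO libraries of each hemisphere. *Clic1* stands at the top in every group with 135 to 170 CPM per kb, and *Kcnj10* at the bottom with 0.219 to 1.204.

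**Figure D2:**
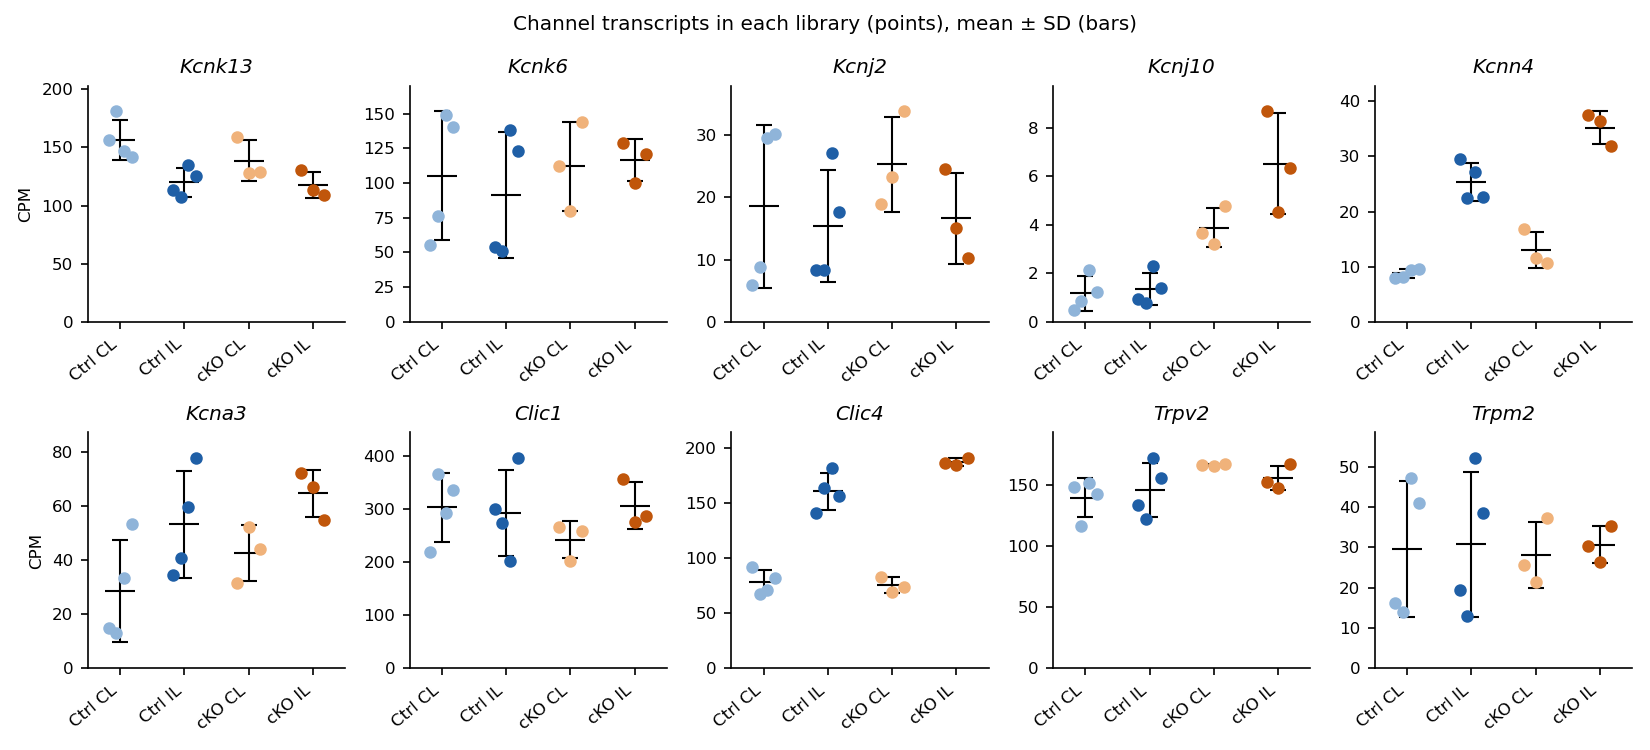
CPM of the 10 channel genes in each library. The y axis is CPM from 0, points are libraries and bars are means ± SD for Ctrl CL and IL (n = 4 each) and cKO CL and IL (n = 3 each). *Kcnn4* and *Clic4* have IL libraries wholly above the CL libraries in both genotypes, and *Kcnj10* has cKO libraries wholly above the Ctrl libraries in both hemispheres.

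The first question was which of the channels differed between the injured and the opposite hemisphere. *Kcnn4* and *Clic4* were higher in the IL hemisphere in both genotypes, by 2.81-fold and 2.15-fold in Ctrl and by 2.78-fold and 2.61-fold in cKO on the scale of the fit. *Kcna3* and *Clic1* were called higher in cKO and not in Ctrl, which is no test of a difference between the genotypes. No channel was called lower. In Ctrl, 2 of 10 were called, where 6.56% of all 16376 genes tested were (3.60% higher, 2.96% lower). The balance over all genes turned with the deposited CPM unscaled, from 590 higher and 484 lower to 625 and 814 in Ctrl, and from 2150 and 1596 to 1647 and 2146 in cKO. In cKO, 4 of 10 were called, where 22.4% of 16758 genes were (12.8% higher, 9.52% lower). The median log2 fold change of the 10 genes was 0.12 in Ctrl and 0.33 in cKO, beside -0.04 and 0.02 over all genes tested. IL and CL libraries did not overlap for 3 genes in Ctrl, namely *Kcnn4* and *Clic4*, higher, and *Kcnk13*, lower, against 17.7% of all genes (6.26% higher, 11.4% lower). In cKO they did not overlap for *Kcnn4*, *Clic4*, *Kcna3* and *Clic1*, against 42.4% of all genes (18.1% higher, 24.3% lower). In bulk RNA, more cells of a type and more RNA per cell cannot be told apart.

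With the mouse as a fixed block, which uses that both hemispheres came from the same animal, the genes called in Ctrl were *Kcnn4*, *Clic4* and *Kcna3*, with 20.5% of all genes called (9.80% higher and 10.7% lower, 3357 genes, against 1074 without the block). In cKO, where only numbers 791 and 3592 stand on both hemispheres, they were *Kcnn4*, *Clic4* and *Kcna3* as well, with 13.8% of all genes called (8.87% higher and 4.92% lower, 2310 genes, against 3746). With the mouse as a random effect over all 14 libraries, the same 3 genes were called in Ctrl, beside 27.4% of all genes, and *Kcnn4*, *Clic4* and *Kcnj10* in cKO, beside 19.6%.

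**Figure D3:**
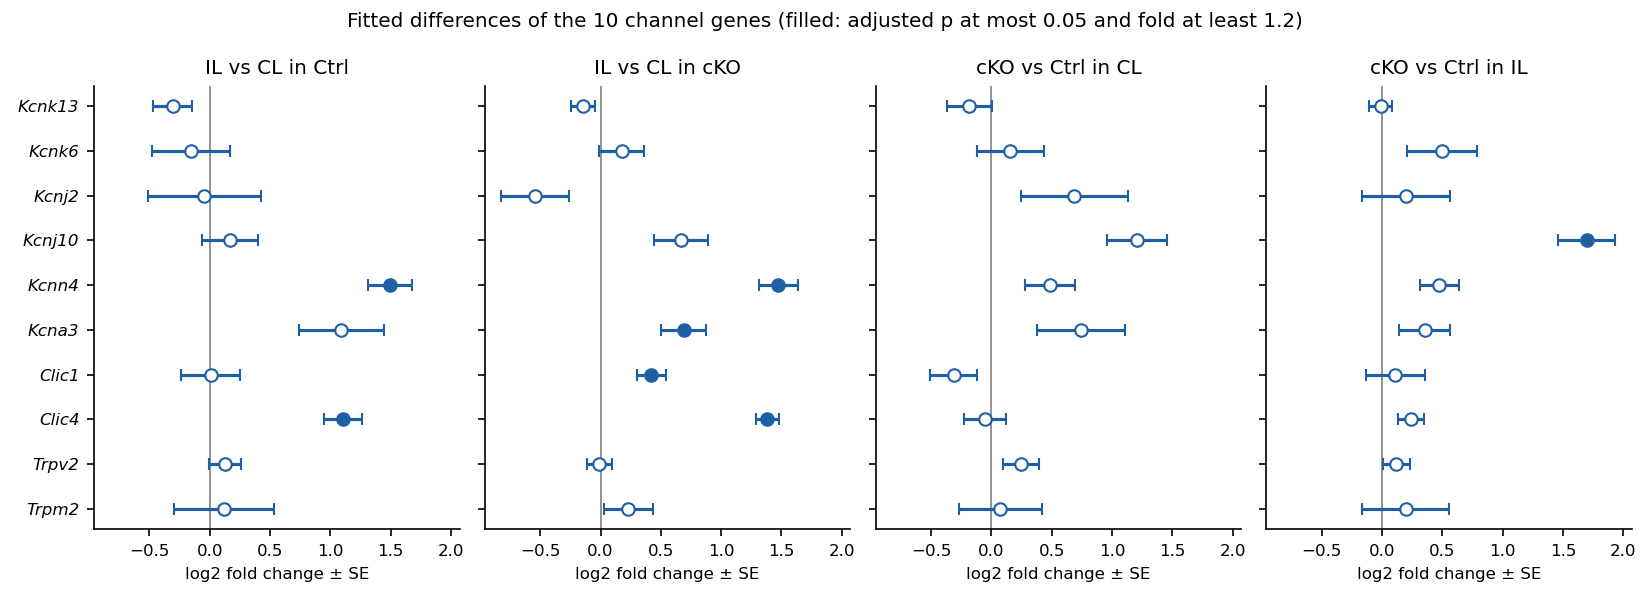
Fitted log2 fold changes (points) ± SE (bars) of the 10 channel genes, on the x axis, in IL vs CL for each genotype and in cKO vs Ctrl for each hemisphere. Filled points are called. *Kcnn4* and *Clic4* are filled in both IL vs CL panels, at 1.11 to 1.49, and *Kcnj10* is filled in the IL panel of cKO vs Ctrl, at 1.70.

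*Kcnn4* (ENSMUSG00000054342, chr7:24370263-24386690, plus strand, GRCm38) encodes KCa3.1, the intermediate-conductance potassium channel that opens on intracellular calcium and hyperpolarises immune cells. It was at 7.98, 8.18, 9.50 and 9.58 CPM in the Ctrl CL libraries of mice 3541, 3545, 3546 and 3551, and at 29.4, 22.4, 27.1 and 22.7 CPM in the IL libraries of the same mice. In cKO it was at 11.6, 10.6 and 16.8 CPM in the CL libraries of mice 788, 791 and 3592 and at 36.3, 31.9 and 37.4 CPM in the IL libraries of mice 784, 791 and 3592. Every IL library was thus above every CL library, and all 6 mice with both hemispheres had more in IL, by 2.23 to 3.69 times. Its log2 fold change was 1.49 (SE 0.18, adjusted p = 0.00177) in Ctrl and 1.48 (SE 0.16, adjusted p = 0.00183) in cKO. The difference between those changes was -0.01 (SE 0.24, adjusted p = 0.9999). *Kcnn4* was called under all 20 alternatives in Ctrl and all 18 in cKO.

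*Clic4* (ENSMUSG00000037242, chr4:135213969-135272814, minus strand) encodes an intracellular channel protein that can move between cytosol, membranes and nucleus. Its Ctrl CL libraries held 91.6, 67.6, 71.3 and 82.3 CPM and the Ctrl IL libraries 141, 163, 182 and 156 CPM, in the order of mice given above. The cKO CL libraries held 69.4, 74.1 and 83.2 CPM and the cKO IL libraries 184, 191 and 186 CPM. IL and CL were apart in both genotypes, and the cKO IL libraries had a mean of 187 CPM with an SD of 3.54. The ratio IL to CL in the same mouse ran from 1.54 to 2.58 in 6 of 6 mice. On the fitted scale, the log2 fold change was 1.11 (SE 0.16, adjusted p = 0.00347) in Ctrl and 1.38 (SE 0.10, adjusted p = 0.00183) in cKO, with a difference of 0.28 (SE 0.20, adjusted p = 0.9999). *Clic4* too was called under all 20 and all 18 alternatives.

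*Kcna3* (ENSMUSG00000047959, chr3:107036169-107038070, plus strand) encodes the voltage-gated channel Kv1.3, which together with KCa3.1 is the best-known potassium channel of activated lymphocytes and microglia. The Ctrl CL libraries were at 15.1, 13.1, 33.3 and 53.4 CPM and the Ctrl IL libraries at 34.6, 40.7, 59.8 and 77.9 CPM. Mice 3541 and 3545 were below mice 3546 and 3551 in both hemispheres, so that the groups overlapped although each mouse had more in IL. The cKO libraries were at 52.3, 44.2 and 31.7 CPM in CL and at 66.9, 55.0 and 72.2 CPM in IL, without overlap. The ratio IL to CL ranged from 1.24 to 3.10 over the 6 mice. The log2 fold change in Ctrl was 1.09 (SE 0.35, adjusted p = 0.09995), and it was called with the mouse as a block (adjusted p = 0.005879). In cKO it was 0.69 (SE 0.19, adjusted p = 0.0314), and it was called under 9 of 18 alternatives, with an adjusted p of 0.0212 with the mouse as a block, 0.0609 with the mouse as a random effect and 0.255 in the fit of all 14 libraries without it. The difference between the genotypes was -0.39 (SE 0.48, adjusted p = 0.9999).

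**Figure D4:**
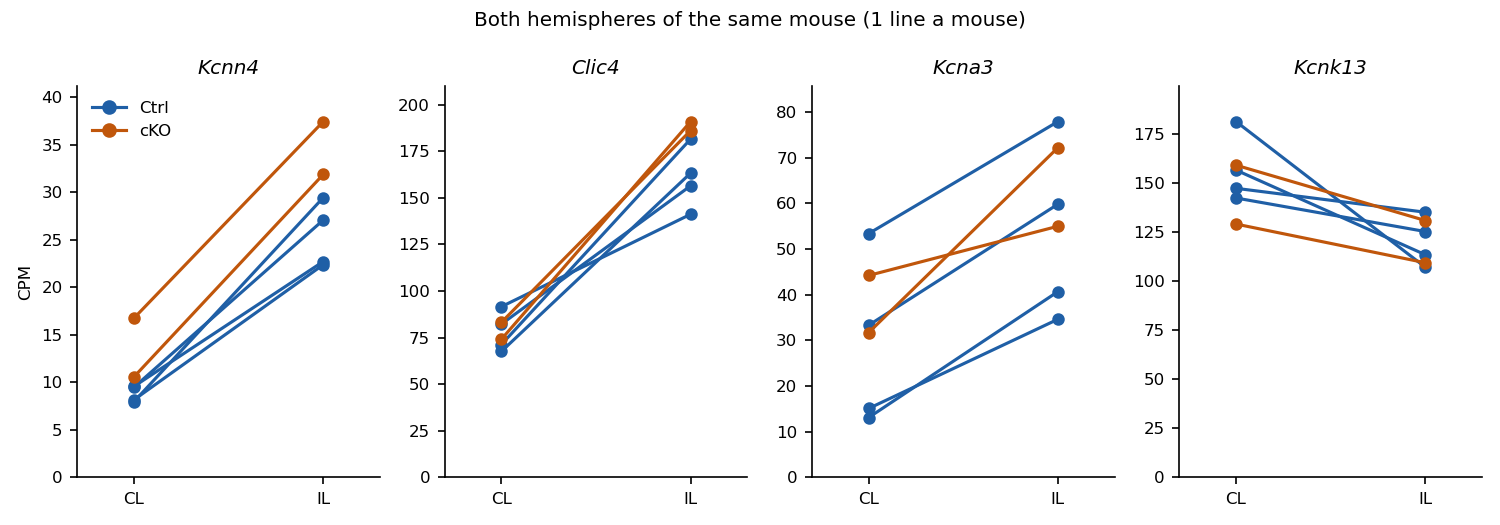
*Kcnn4*, *Clic4*, *Kcna3* and *Kcnk13* in both hemispheres of the same mouse. The y axis is CPM from 0, each line is 1 of the 6 mice with both hemispheres (4 Ctrl, 2 cKO), and no error is drawn. All lines rise from CL to IL for *Kcnn4*, *Clic4* and *Kcna3*, and all fall for *Kcnk13*.

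As *Kcnn4*, *Clic4* and *Kcna3* were higher in IL in each of the 6 mice, the 250 bases before their start sites are given, from the RefSeq promoter table (GRCm38.p6), which held a window for 9 of the 10 genes and none for *Kcnk6*. Capitals mark matches, on either strand, to motifs of AP-1 (TGANTCA), PU.1 (GAGGAAGT), IRF (10 bases), the GC box (GGGCGG) and NF-kB (10 bases, degenerate). The windows read 5′ to 3′ along the gene, at chr7:24370013-24370262 (plus), chr4:135272761-135273010 (minus) and chr3:107035912-107036161 (plus).
Kcnn4: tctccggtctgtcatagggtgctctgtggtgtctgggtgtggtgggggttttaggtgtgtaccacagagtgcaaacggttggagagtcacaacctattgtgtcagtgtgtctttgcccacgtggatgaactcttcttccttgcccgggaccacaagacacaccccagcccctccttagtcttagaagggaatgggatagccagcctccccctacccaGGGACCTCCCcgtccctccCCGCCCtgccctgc
Clic4: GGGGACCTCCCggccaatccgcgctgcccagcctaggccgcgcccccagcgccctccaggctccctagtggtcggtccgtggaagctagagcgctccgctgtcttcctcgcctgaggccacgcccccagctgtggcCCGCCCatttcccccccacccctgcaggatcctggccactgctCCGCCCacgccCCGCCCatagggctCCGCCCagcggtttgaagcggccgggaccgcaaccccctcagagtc
Kcna3: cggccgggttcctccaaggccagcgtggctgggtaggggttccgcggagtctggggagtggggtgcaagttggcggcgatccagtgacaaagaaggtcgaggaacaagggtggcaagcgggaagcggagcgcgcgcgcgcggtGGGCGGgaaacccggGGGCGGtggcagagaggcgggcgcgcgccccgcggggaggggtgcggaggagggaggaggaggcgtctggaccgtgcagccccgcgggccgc
The capitals in these windows are GC boxes and NF-kB matches only. *Kcnn4* and *Clic4* share the same 10-base match, GGGACCTCCC, which begins 33 bases before the start of *Kcnn4* and 249 bases before that of *Clic4*, where it overlaps a further match. In *Kcna3* the only matches are a pair of GC boxes. The 9 genes have 11 windows, 3 of them at *Trpv2*, of which 2 overlap. An NF-kB match was present in 4 of 11 (also at *Clic1* and in 1 window of *Trpv2*) against 7.25% of all 32851 windows, and a GC box in 7 of 11 against 32.7%. The 11 windows held 50.4 to 74.4% G and C (median 58.8%), beside a median of 52.4% over all windows. The AP-1 motif occurred in 1 window, at *Clic1* (6.75% of all windows), the PU.1 motif in the 2 overlapping windows of *Trpv2* (2.44%) and the IRF motif in 0 (2.98%). Matches of letters say nothing about binding in these cells.

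The remaining genes moved less between the hemispheres. *Kcnk13* (ENSMUSG00000045404, chr12:99964499-100062682, plus strand) encodes THIK-1, the two-pore potassium channel that carries the tonic potassium current of microglia and acts on process surveillance. Its Ctrl CL libraries were at 156, 181, 147 and 142 CPM and its Ctrl IL libraries at 113, 107, 135 and 125 CPM, which do not overlap. In cKO, 129, 129 and 159 CPM in CL stood beside 113, 109 and 131 CPM in IL, and these overlap. All 6 mice with both hemispheres had less in IL, with ratios from 0.591 to 0.917. *Kcnk13* was nevertheless not called, with a log2 fold change of -0.31 in Ctrl (SE 0.16, adjusted p = 0.320) and -0.15 in cKO (SE 0.10, adjusted p = 0.329). It was called in none of the alternatives, where the lowest adjusted p was 0.0540, in Ctrl with the mouse as a random effect. Each of the 15 homeostatic microglia genes had a more negative fitted change than *Kcnk13* in both genotypes, with medians of -1.02 and -1.04. The genes whose log2 values were most like those of *Kcnk13* over the 14 libraries, among 9744 genes, were *Wdr53*, *Plpp7* and *Sparcl1* (Pearson r 0.928, 0.924 and 0.920), where the libraries share group differences and mice.

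*Clic1* (ENSMUSG00000007041, chr17:35049966-35058749, plus strand) encodes the redox-sensitive chloride intracellular channel of microglia. It was at 218, 367, 292 and 335 CPM in Ctrl CL and 299, 274, 202 and 397 CPM in Ctrl IL. In these libraries IL and CL overlapped, and the same mouse moved up in 2 cases and down in the other two. In cKO the CL libraries, with 202, 259 and 266 CPM, were all below the IL libraries, with 275, 287 and 357 CPM. The fitted log2 change was 0.01 in Ctrl (SE 0.25, adjusted p = 0.992) and 0.42 in cKO (SE 0.12, adjusted p = 0.0382). The cKO call was kept under 6 of 18 alternatives and was lost with the mouse as a block (adjusted p = 0.08955). The difference between genotypes was 0.42 (SE 0.33, adjusted p = 0.9999).

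*Kcnk6* (ENSMUSG00000046410, chr7:29221926-29232515, minus strand) encodes TWIK-2, the two-pore channel known for ATP-induced potassium efflux in macrophages. Its Ctrl libraries were at 55.5, 76.4, 149 and 140 CPM in CL and 54.3, 50.9, 138 and 123 CPM in IL. The spread was between mice rather than between hemispheres, since mice 3541 and 3545 were at 76.4 CPM or less and mice 3546 and 3551 at 123 CPM or more on both sides. The cKO libraries lay between 80.1 and 144 CPM. Between IL and CL the log2 fold change was -0.15 in Ctrl (SE 0.32, adjusted p = 0.867) and 0.17 in cKO (SE 0.19, adjusted p = 0.539).

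*Kcnj2* (ENSMUSG00000041695, chr11:111066164-111076821, plus strand), which encodes the strong inward rectifier Kir2.1, was likewise lower in Ctrl mice 3541 and 3545 than in 3546 and 3551, with 5.87, 8.75, 29.5 and 30.2 CPM in CL and 8.39, 8.42, 27.1 and 17.7 CPM in IL. In cKO it was at 23.2, 33.8 and 19.0 CPM in CL and 15.1, 10.3 and 24.6 CPM in IL. IL and CL overlapped in both genotypes, and 2 of the 6 mice had more CPM in IL. The log2 fold change was -0.04 in Ctrl (SE 0.47, adjusted p = 0.980) and -0.54 in cKO (SE 0.28, adjusted p = 0.202). The ratio IL to CL was 0.303 in cKO mouse 791 and 1.299 in cKO mouse 3592.

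*Trpm2* (ENSMUSG00000009292, chr10:77907722-77970563, minus strand), whose channel opens on ADP-ribose and under oxidative stress, was also lower in Ctrl mice 3541 and 3545 than in 3546 and 3551. It was at 16.3, 13.99, 47.2 and 40.9 CPM in Ctrl CL and 19.4, 12.9, 52.2 and 38.4 CPM in Ctrl IL, and between 21.5 and 37.2 CPM in the cKO libraries. The log2 fold change was 0.12 in Ctrl (SE 0.41, adjusted p = 0.930) and 0.23 in cKO (SE 0.20, adjusted p = 0.446). What sets mice 3541 and 3545 apart was not tested.

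*Trpv2* (ENSMUSG00000018507, chr11:62574486-62600515, plus strand), a channel of macrophages with a part in phagocytosis, was at 149, 116, 152 and 143 CPM in Ctrl CL, 134, 123, 173 and 156 in Ctrl IL, 166, 167 and 167 in cKO CL and 148, 167 and 153 in cKO IL. Per kb its level over all 14 libraries was 33.7 ± 3.85 CPM (SD). Between IL and CL the log2 fold change was 0.13 in Ctrl (SE 0.13, adjusted p = 0.663) and -0.01 in cKO (SE 0.10, adjusted p = 0.955).

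Markers of other cells also moved between the hemispheres. The sum of 10 infiltrating monocyte markers was 282 to 849 CPM in Ctrl CL and 766 to 1327 in Ctrl IL, and 166 to 475 CPM in cKO CL and 713 to 1099 in cKO IL, with 4 of 10 called higher in Ctrl and 5 of 10 in cKO, where 3.60% and 12.8% of all genes were. None of these markers was at 0 in any library. The homeostatic list had 10 of 15 genes called lower in each genotype, where 2.96% of all genes were in Ctrl and 9.52% in cKO. Of 12 disease-associated microglia genes, 5 were called higher in Ctrl and 3 in cKO, and their sum was 7257 to 11216 CPM in Ctrl CL, 24170 to 47183 in Ctrl IL, 8440 to 14679 in cKO CL and 22993 to 28559 in cKO IL. Neutrophil markers had their highest sum in CL, at 1392 to 8621 CPM in Ctrl CL against 879 to 1512 in Ctrl IL and at 1322 to 2379 in cKO CL against 861 to 1095 in cKO IL, with 8 of 12 called lower in cKO. In Ctrl 0 of 12 neutrophil markers were called by limma, and 7 had an unadjusted p under 0.05, beside 21.1% of all genes. B cell markers summed to 567 to 845 CPM in Ctrl CL and 325 to 355 in Ctrl IL, and to 668 to 779 in cKO CL and 326 to 499 in cKO IL, with 2 of 5 tested called lower in Ctrl and 2 of 4 in cKO. T and NK cell markers summed to 15.6 to 26.3 CPM in Ctrl CL and 6.87 to 8.68 in Ctrl IL, with 4 of 7 called lower, and the cKO libraries overlapped, at 9.30 to 15.3 in CL and 6.45 to 19.4 in IL, with 0 of 10 called by limma and 0 at an unadjusted p under 0.05. The sums of endothelial and mural markers and of border-associated macrophage markers overlapped between IL and CL in both genotypes. Dissociation response genes summed to 32024 to 50681 CPM in CL and 23718 to 29510 in IL. The part of each of these in the changes of *Kcnn4*, *Clic4* and *Kcna3* was not tested.

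The second question was which channels differed between cKO and Ctrl in the same hemisphere. *Kcnj10* was the only one called, in the IL hemisphere, where it was 3.24-fold higher in the cKO on the scale of the fit, beside 0.658% of 16873 genes called (0.356% higher, 0.302% lower). In the CL hemisphere 0 of 10 were called by limma, beside 0.875% of 16570 genes (0.465% higher, 0.410% lower), and 2 of 10 (*Kcnj10* and *Kcnn4*) had an unadjusted p under 0.05, as the same 2 had in IL, beside 9.81% of all genes in CL and 8.9% in IL. Libraries of the genotypes did not overlap for *Kcnj10*, *Kcnn4* and *Clic4* in IL and for *Kcnj10*, *Kcnn4* and *Trpv2* in CL, all higher in the cKO, against 4.85% of all genes higher and 5.48% lower in IL and 3.98% higher and 6.04% lower in CL. The median log2 fold change over the 10 was 0.22 in IL and 0.20 in CL, beside 0.01 and -0.05 over all genes. With the mouse as a random effect over all 14 libraries, *Kcnj10* was the only call in each hemisphere, beside 1.13% of all genes in IL and 1.75% in CL. The hemispheres share most of their mice, so both comparisons rest largely on the same animals.

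*Kcnj10* (ENSMUSG00000044708, chr1:172341210-172374085, plus strand) encodes Kir4.1, the inward rectifier by which astrocytes and oligodendrocytes buffer extracellular potassium. It was at 0.481, 0.853, 2.15 and 1.24 CPM in Ctrl CL, 0.939, 0.796, 2.29 and 1.40 in Ctrl IL, 3.21, 4.77 and 3.64 in cKO CL and 4.51, 6.35 and 8.67 in cKO IL. Here too Ctrl mice 3541 and 3545 were below mice 3546 and 3551 in both hemispheres. Every cKO library was above every Ctrl library, and the level was low in all of them. The log2 fold change was 1.70 in IL (SE 0.24, adjusted p = 0.0206) and 1.21 in CL (SE 0.25, adjusted p = 0.0535). Since values near 1 CPM are compressed by the added 1, the IL means themselves, 1.36 ± 0.674 CPM for Ctrl (SD, n = 4) and 6.51 ± 2.09 CPM for cKO (n = 3), lie further apart than the fitted fold. In CL they were 1.18 ± 0.718 CPM (n = 4) and 3.87 ± 0.804 CPM (n = 3).

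The *Kcnj10* call in IL was kept under 11 of 18 alternatives. It was lost without any 1 of Ctrl mice 3541, 3545 and 3551 and of cKO mice 791 and 3592 (highest adjusted p = 0.127, with log2 fold changes of 1.53 to 1.70), with the deposited CPM unscaled (0.05175) and without the filter (0.0774). In CL it was called in the fit of all 14 libraries (adjusted p = 0.0223), in that fit with the mouse as a random effect (0.0199) and without Ctrl mouse 3546 (0.0214). Between hemispheres, *Kcnj10* had a log2 fold change of 0.17 in Ctrl (SE 0.23, adjusted p = 0.770) and 0.67 in cKO (SE 0.22, adjusted p = 0.0656), and the latter was called with the mouse as a random effect (adjusted p = 0.0212).

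Markers of the cells best known for Kir4.1 were present in the libraries. The 12 astrocyte markers were all above 0 in every library and summed to 227 to 260 CPM in Ctrl CL, 197 to 248 in cKO CL, 133 to 218 in Ctrl IL and 145 to 201 in cKO IL. The genotypes overlapped on both sides, and 0 of 12 astrocyte markers were called between them by limma, with 2 in IL and 2 in CL at an unadjusted p under 0.05, beside 8.9% and 9.81% of all genes. Oligodendrocyte markers summed to 185 to 262 CPM in Ctrl IL and 214 to 260 in cKO IL with 0 of 13 called (0 at an unadjusted p under 0.05), and to 236 to 337 CPM in Ctrl CL and 182 to 225 in cKO CL with 1 of 12 called, lower in the cKO. The astrocyte gene *Slc1a3* alone was at 174 ± 10.7 CPM in Ctrl CL, 73.5 ± 7.38 in Ctrl IL, 156 ± 17.1 in cKO CL and 85.0 ± 14.8 in cKO IL. *Gfap* went the other way, from 9.42 ± 3.67 CPM in CL to 33.9 ± 9.40 in IL in Ctrl and from 7.81 ± 3.32 to 31.1 ± 10.4 in cKO. Between hemispheres, 1 astrocyte marker was called higher and 1 lower in Ctrl, and 1 higher and 2 lower in cKO. Of oligodendrocyte markers, 0 of 13 were called in Ctrl and 3 of 12 in cKO, all higher. Among all genes, 6.56% were called in Ctrl and 22.4% in cKO. Between the genotypes, single astrocyte genes differed in direction. *Gja1* was at 17.7 ± 5.87 CPM in Ctrl IL and 35.9 ± 15.3 in cKO IL, with overlap (log2 fold change 0.96, SE 0.31, adjusted p = 0.328), and *Aldoc* at 9.44 and 5.47 CPM (-0.65, SE 0.22, adjusted p = 0.372). *Aldh1l1* was at 3.93 ± 1.81 CPM in Ctrl IL and 5.62 ± 0.993 in cKO IL (adjusted p = 0.640). The part of glial RNA in the *Kcnj10* difference was not tested.

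Genes near *Kcnj10* on chromosome 1 were also called between the genotypes. Within 5 Mb, 9 of 108 genes tested were called in IL (8.33%, 3 higher and 6 lower) and 8 of 106 in CL (7.55%, 2 higher and 6 lower), beside 0.658% and 0.875% of all genes. Around *Kcna3* on chromosome 3 the counts were 4 of 109 (3.67%) and 4 of 103 (3.88%), with 2 in each direction both times. Around the other 8 channel genes there was no call in IL and at most 1 in CL.

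**Figure D5:**
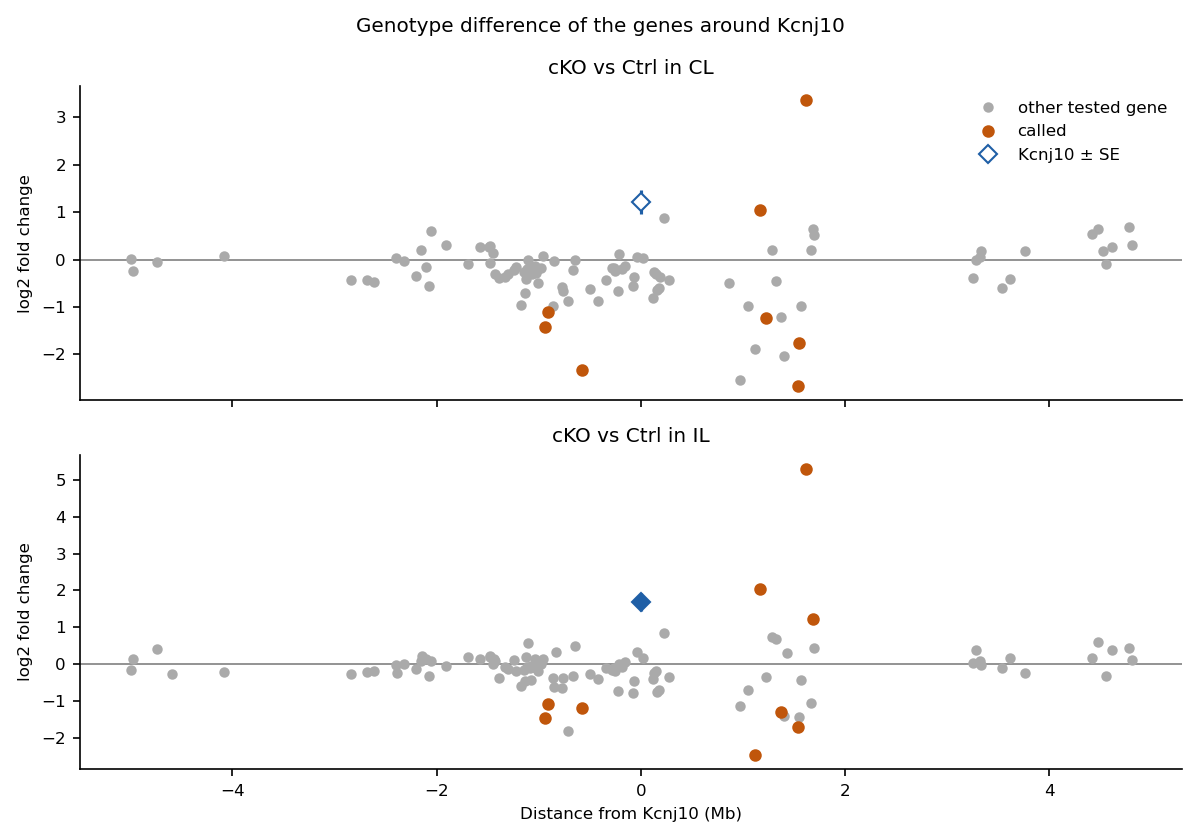
Genotype difference of genes tested within 5 Mb of *Kcnj10*. The x axis is the distance from *Kcnj10* in Mb and the y axis the log2 fold change of cKO vs Ctrl in CL (top) and IL (bottom). Orange points are called genes, grey points other genes, and the diamond is *Kcnj10* ± SE, filled where called. The called genes lie within 2 Mb of *Kcnj10*, and in IL 3 are higher and 6 lower in the cKO.

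In the IL hemisphere *Kcnn4* averaged 25.4 ± 3.44 CPM for Ctrl (SD, n = 4) and 35.2 ± 2.95 for cKO (n = 3). In the CL hemisphere it averaged 8.81 ± 0.847 and 12.99 ± 3.31 CPM. The genotypes did not overlap on either side, but neither difference was called, with a log2 fold change of 0.47 in IL (SE 0.16, adjusted p = 0.361) and 0.48 in CL (SE 0.21, adjusted p = 0.471). *Clic4* was apart in IL only, at 161 ± 16.7 CPM in Ctrl and 187 ± 3.54 in cKO, with a log2 fold change of 0.24 (SE 0.11, adjusted p = 0.590). In CL the *Clic4* means were 78.2 ± 10.9 and 75.6 ± 7.02 CPM. *Trpv2* was apart in CL only, at 140 ± 16.2 CPM in Ctrl and 167 ± 0.890 in cKO, with a log2 fold change of 0.25 (SE 0.15, adjusted p = 0.636). The adjusted p of the 6 other genes ranged from 0.553 to 0.989 over both hemispheres. For *Kcna3*, *Kcnk6*, *Kcnj2* and *Trpm2* the Ctrl libraries spanned more CPM than the cKO libraries in each hemisphere. Apart from *Kcnj10*, none of the 10 genes was called between the genotypes under any alternative.

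The third question was whether the injury response differed between the genotypes. By limma 0 of 10 channel genes and 0 of 18476 genes passed, and 0 of 10 and 481 had an unadjusted p under 0.05. With the mouse as a random effect 3 genes passed (0.0162%), none of them among the 10. The differences of the IL vs CL changes ranged from -0.49 (SE 0.65) for *Kcnj2* to 0.51 (SE 0.35) for *Kcnj10*. At these standard errors, differences of this size cannot be told from 0.

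Other genes of the same families were counted from lists of names, in the fits without the mouse only. Of 73 other potassium channel subunits, 29 passed the filter for IL vs CL in Ctrl and 36 in cKO. The 1 of 29 called in Ctrl and 5 of 36 in cKO lie below the 6.56% and 22.4% of all genes. *Kcnj12*, a Kir2 relative of *Kcnj2*, was lower in IL in both genotypes, at 11.3 ± 3.73 and 4.09 ± 1.89 CPM in Ctrl CL and IL (log2 fold change -1.23, SE 0.30, adjusted p = 0.0374) and at 13.98 ± 1.94 and 4.85 ± 1.88 CPM in cKO (-1.32, SE 0.26, adjusted p = 0.0112). It was the only call in Ctrl. In cKO, 4 were lower and 1 higher, and *Kcnk12*, which encodes THIK-2, the closest relative of THIK-1, was among the lower ones with 59.7 ± 24.0 CPM in CL and 22.9 ± 5.81 in IL (-1.21, SE 0.30, adjusted p = 0.0225). The voltage-gated *Kcnd1* fell there from 70.7 ± 10.3 to 31.2 ± 2.09 CPM (adjusted p = 0.00183), and *Kcnk9*, which encodes the acid-sensitive channel TASK-3, from 2.99 ± 1.48 to 0.775 ± 0.286 CPM (adjusted p = 0.0361). In Ctrl, *Kcnk12* was at 36.4 ± 5.78 CPM in CL and 21.6 ± 5.57 in IL, and *Kcnd1* at 51.8 ± 9.60 and 34.6 ± 11.1. Both were lower in IL in each Ctrl mouse but were not called. Between the genotypes, 0 of 35 were called in IL and 1 of 34 in CL, beside 0.658% and 0.875% of all genes. That gene was again *Kcnk9*, at 0.335 ± 0.277 CPM in Ctrl CL against the cKO CL level above (log2 fold change 1.53, SE 0.28, adjusted p = 0.0343).

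Of 20 auxiliary potassium channel subunits, 7 were tested in Ctrl and 8 in cKO for IL vs CL, with 2 called in Ctrl and 1 in cKO, beside 6.56% and 22.4% of all genes. *Kcnab2*, the Kvβ2 subunit that associates with Kv1 channels such as Kv1.3, was higher in IL in both genotypes, from 4.02 ± 1.001 to 11.2 ± 2.16 CPM in Ctrl (adjusted p = 0.00604) and from 2.90 ± 1.31 to 7.07 ± 3.10 in cKO (adjusted p = 0.0317). *Kcnip3*, which encodes the calcium-binding protein DREAM, was lower in IL in Ctrl, from 31.2 ± 1.11 to 11.8 ± 1.74 CPM (adjusted p = 0.003997). In cKO it was at 19.8 CPM in CL and 6.00 in IL in mouse 3592, and at 0.400 to 1.02 CPM in the other libraries. It was below all Ctrl libraries on both sides but was not called between genotypes (adjusted p = 0.108 in IL and 0.0924 in CL), where 0 of 8 and 0 of 7 of this list were called.

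Of 35 other chloride and anion channels, 25 were tested for IL vs CL in each genotype. In Ctrl 3 were higher and 1 lower, and in cKO 4 were higher and 2 lower, where 6.56% and 22.4% of all genes were called, so that the cKO count is near the background. *Lrrc8c*, a subunit of the volume-regulated anion channel, rose from 10.5 ± 2.50 to 21.8 ± 2.45 CPM in Ctrl (adjusted p = 0.0158) and from 12.0 ± 1.84 to 27.4 ± 3.57 in cKO (adjusted p = 0.00260), and its partner *Lrrc8b* was called in Ctrl (adjusted p = 0.0488). *Ttyh2* rose from 4.93 ± 1.81 to 15.3 ± 4.53 CPM in Ctrl (adjusted p = 0.00401) and from 6.04 ± 1.37 to 13.2 ± 2.89 in cKO (adjusted p = 0.00656). *Tmem206*, the proton-activated chloride channel, fell from 204 ± 18.3 to 118 ± 7.76 CPM in Ctrl (adjusted p = 0.0196) and from 147 ± 14.1 to 95.6 ± 13.9 in cKO (adjusted p = 0.0336). *Best1* (1.08 ± 0.387 to 2.20 ± 0.239 CPM, adjusted p = 0.0333) rose and *Ano7* (3.63 ± 0.390 to 1.35 ± 0.193 CPM, adjusted p = 0.00617) fell in cKO. Between genotypes, 0 of 25 were called in IL and 0 of 24 in CL.

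Of 26 other TRP channels, 14 were tested for IL vs CL in each genotype, with 2 called in Ctrl and 1 in cKO, beside 6.56% and 22.4% of all genes. The genes called encode mucolipins, channels of endosomes and lysosomes. *Mcoln2* rose from 0.486 ± 0.565 to 4.001 ± 1.45 CPM in Ctrl (log2 fold change 1.81, SE 0.31, adjusted p = 0.00885) and from 0.477 ± 0.493 to 2.74 ± 1.04 in cKO (1.40, SE 0.25, adjusted p = 0.00792). *Mcoln3* rose in Ctrl from 0.199 ± 0.0927 to 3.78 ± 1.57 CPM (1.97, SE 0.27, adjusted p = 0.00289). Between genotypes, 0 of 15 were called in IL and 0 of 13 in CL. By limma without adjustment, the lists of other potassium, auxiliary, chloride and TRP channels held 4, 3, 0 and 2 genes with a p under 0.05 between genotypes in IL and 7, 1, 3 and 2 in CL. Over all genes these shares were 8.9% and 9.81%.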

How the data were processed

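CD11b+ cells of 14 hemispheres, under 8 mouse numbers, were profiled by RNA-seq (Smart Seq v4 libraries). The authors aligned reads with STAR to mm10 in Partek Flow (Partek 8.0 in the submitters' processing notes) and deposited gene values that are CPM: each library summed to 1000000, and 75.2 to 81.1% of low values were whole multiples of one step within 0.03 of a read, too few for a count test. The deposited comparison tables (p, FDR, ratio, fold change and least-squares means) were not used. Library depth was derived from that step (12.2 to 41.6 M reads). An SD within a group is the spread between libraries of different mice. The SD of *Trpv2* over all 14 libraries mixes the groups and holds both hemispheres of most mice. An SE is that of the limma fit, which draws on the variance of other genes.

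CPM were rescaled by unweighted TMM (30% of M-values and 5% of A-values trimmed; factors 0.845 to 1.156 over all fits), and limma 3.58.1 (R 4.3.3) was fitted with a variance trend to log2(CPM + 1), which understates the change of low genes. Genes needed a level worth 10 reads at the median depth in the comparison and 15 reads in total. P-values were two-sided and adjusted by Benjamini-Hochberg over all genes tested. Each comparison used its own groups, the interaction all 14 libraries. The fit was run on simulated data with no effect of the mouse, which cannot show how it does where libraries of the same mouse are alike. Same-numbered libraries are the same animal, and their residuals correlated at 0.182 to 0.608 in 6 pairs, against -0.536 to 0.503 in 19 other pairs. The mouse was therefore added as a fixed block or random effect as an alternative. The cKO libraries 784 IL and 788 CL, which may or may not be 1 animal, correlated at 0.1814, beside 0.1815 for 791, and were not paired in the blocked fits. Other alternatives were the scaling, pseudocount, filter, fold threshold, a joint fit and leaving out each library. The changed fold thresholds (none, or at least 2) reuse the main fit, so no direction could change. Without a fold threshold no call could be lost. Exon lengths and positions came from the GENCODE annotation of GRCm38. Stretches of at least 100 bases with 95% identity to other genes were present in *Kcnj10*, *Clic1*, *Clic4*, *Trpv2* and *Trpm2*, the longest of 198 bases, so that part of their reads may be shared. All 10 genes were named. Of the other-channel lists, up to 4 called genes per comparison with the largest change were eligible, or the 3 most abundant where none was called. For *Kcnk13* the 3 genes with the highest Pearson r were named. The targeted gene is not reported here. Genes and lists were chosen with earlier results of these data known. Python 3.11.15, numpy 2.4.6, pandas 2.3.3 and matplotlib 3.10.9 were used.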

Additional observations from a re-analysis of the deposited data

Results flagged for a closer look

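*Trpv2* in the IL library of Ctrl mouse 3545 was at 123 CPM, the lowest of the 4 Ctrl IL libraries. On the scaled log2 values its gap to the nearest library took 0.855 of the range of the group, above Dixon's 95% critical value for 4 samples. This holds with the scaling factors of the fit of all 14 libraries and of cKO vs Ctrl in IL (0.853). With the factors of IL vs CL in Ctrl the share was 0.345, and with the deposited CPM 0.254, both below that value. Of 20 groups of 4 libraries tested, it was the only one beyond this value, and chance gives about 1 in 20.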

How the results depend on the processing

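Of 980 values of single genes under the alternatives, 898 kept their direction and side of the threshold, 28 lost a call, 9 gained one and 45 changed sign, none of the last beyond 0.253 on the log2 scale. These counts include the changed fold thresholds, which reuse the main fit. *Kcnn4* and *Clic4* stayed called between the hemispheres throughout. The cause of each change below was not tested.

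All genes called for IL vs CL in Ctrl numbered 552 without the filter, 2091 in the fit of all 14 libraries, 554 at a fold of 2, 3357 with the mouse as a fixed replicate block and 4479 with it as a random effect, and 487 (without Ctrl IL 3541) to 1413 (without Ctrl IL 3546) with 1 library left out. In cKO they numbered 1488 in the fit of all 14 libraries, 822 at a fold of 2, 2310 with the fixed block, and 1881 (without cKO IL 784) to 3537 with 1 library left out. For cKO vs Ctrl in IL they numbered 66 without the filter, 191 with the random effect, and 46 (without cKO IL 784) to 284 with 1 library left out. In CL they numbered 88 without the filter, 86 with at least 10 reads in every library, 262 in the joint fit, 290 with the random effect, and 70 to 165 with 1 library left out. For the interaction they numbered 3 with the random effect and 0 to 1 with 1 library left out.

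Channel genes called for IL vs CL in cKO fell to 2 with the deposited CPM, without the filter, in the fit of all 14 libraries and at a fold of 2, and ranged from 2 to 4 with 1 library left out. *Kcna3* was lost there without CL 791 or IL 784, 791 or 3592, and *Clic1* without CL 788 or 791 or IL 784, 791 or 3592. *Kcnj10* was gained without IL 784 (adjusted p = 0.0470). In Ctrl 2 to 3 were called with 1 library left out, *Kcna3* being gained without CL 3551 (adjusted p = 0.0333). For cKO vs Ctrl in IL 0 were called with the deposited CPM and without the filter, and 0 to 1 with 1 library left out. In CL 1 was called in the joint fit and with the mouse as a random effect, and 0 to 1 with 1 library left out. Apart from these and the blocked values given above, the replicate block changed no call of the 10 genes.

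Values that changed sign were all uncalled. For IL vs CL in Ctrl, *Clic1* was -0.064 with the deposited CPM and *Kcnj2* 0.0050 with upper-quartile scaling. In cKO, *Trpv2* was 0.017 in the joint fit, 0.031 with the random effect and 0.041 with the fixed block. In CL, *Clic4* was 0.028 with upper-quartile scaling. With 1 library left out, the IL vs CL value in Ctrl ranged from -0.37 to 0.011 for *Kcnk6*, -0.41 to 0.25 for *Kcnj2*, -0.10 to 0.24 for *Clic1* and -0.13 to 0.38 for *Trpm2*. In cKO it ranged from -0.019 to 0.37 for *Kcnk6* and -0.10 to 0.065 for *Trpv2*. For cKO vs Ctrl in IL it ranged from -0.044 to 0.0055 for *Kcnk13*, -0.066 to 0.45 for *Kcnj2*, -0.12 to 0.24 for *Clic1* and -0.098 to 0.44 for *Trpm2*. In CL it ranged from -0.056 to 0.35 for *Kcnk6*, -0.13 to 0.082 for *Clic4* and -0.17 to 0.32 for *Trpm2*. For the interaction it ranged from -0.14 to 0.17 for *Kcnn4* and -0.17 to 0.36 for *Trpm2*. In fits without the mouse, the distance between Ctrl mice enters the standard errors. With 3 or 4 libraries a group, changes of *Kcnk6*, *Kcnj2* and *Trpm2* larger than their standard errors also went uncalled. An example is *Kcnj2* for IL vs CL in cKO, at -0.54 (SE 0.28).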
